A study of Homo sapiens with 24 samples.

Results

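The DEAD and DEAH box helicase genes in these data were 48 of the 9792 genes that held an enriched window in at least 1 of 6 deposited lists. They were chosen by name: every gene whose symbol in the lists opened with DDX or DHX and a number, 32 DDX and 16 DHX genes. Of these, 46 were protein-coding, and DDX12P and DHX40P1 were pseudogenes. RefSeq (GRCh38.p14) holds 54 protein-coding genes with such symbols, and the 8 without a window included the germline helicases DDX4, DDX43 and DDX53 and the virus-induced genes DDX60, DDX60L and DHX58.

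DEAD and DEAH box proteins are ATP-driven enzymes that open RNA duplexes or strip proteins from RNA. Their names come from a conserved run of amino acids in the ATP-binding core. Different members act on pre-mRNA in the spliceosome, on mRNPs during export, translation and decay, and on precursors of the ribosome. What was measured here is not the helicase proteins but their RNAs: which stretches of the DDX and DHX transcripts were bound by 3 other proteins.

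The study applied eCLIP, in which protein and RNA are crosslinked, RNA is trimmed with RNase, the protein is precipitated (IP) and the attached RNA is sequenced beside a size-matched input, to HEK293, a human embryonic kidney line. SNRNP200 is itself an RNA helicase, the U5 snRNP protein that unwinds U4 from U6 RNA when the spliceosome is activated. It was profiled in untreated cells and after 500 µM arsenic, from the whole cell and from a cytoplasmic fraction. CAPRIN (the labels give no family number) and G3BP1, partner proteins of stress granules, were profiled without arsenic. The 24 libraries formed 12 groups, 1 IP group and 1 input group for each of the 6 experiments, with 2 labelled replicates in each. The labels do not say that replicates came from separate cultures, so the spread between them may be technical, and they give no time for the arsenic.

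The members' RNAs include 1 small RNA of known sequence, shown here because its hairpin coincides base for base with a listed SNRNP200 window. miR-1226 lies in DHX30, the gene of a helicase of mitochondrial RNA granules, at chr3:47849555-47849629 on the plus strand (GRCh38). It is a mirtron, a microRNA whose hairpin is a whole short intron and is released by splicing. The sequences are from RefSeq. In the hairpin the capitals mark the GU and AG at the intron ends, and in the mature strands the seed, bases 2 to 8.
MIR1226 hairpin: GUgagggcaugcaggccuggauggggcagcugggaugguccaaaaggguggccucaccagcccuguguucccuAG
hsa-miR-1226-5p: gUGAGGGCaugcaggccuggaugggg
hsa-miR-1226-3p: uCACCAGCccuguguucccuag
In untreated whole cells the SNRNP200 window on this hairpin held 150 IP and 2 input reads, and the log2 enrichment of IP over input was 4.65 in the lower and 5.23 in the higher replicate. With arsenic it held 97 IP and 7 input reads and had replicate values of 2.52 and 3.88. The replicate ranges of the 2 lists did not overlap at this window, which was singled out after its values were seen and was not tested by itself. Over the 7531 genes tested in whole cells, 15.1% were lower and 16.9% higher with arsenic without overlap, in 1 shared window each. A short intron stretch of DHX30 at chr3:47849092-47849179 lay apart and higher, at 3.56 and 4.25 without arsenic and 4.94 and 5.05 with it. The DHX30 coding windows on either side of the miR-1226 intron were listed in untreated cells too, at 4.54 (mean of replicates) just upstream and 4.47 just downstream. With arsenic the upstream one was listed at 4.31 and the downstream one was not listed. No window on the hairpin was listed for cytoplasmic SNRNP200, CAPRIN or G3BP1.

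SNRNP200 windows in whole cells covered nearly the whole family. In the untreated whole-cell list 47 of the 48 members had a window, where 92.4% of all 9792 genes had one, and in the arsenic list again 47, where 83.8% of all genes did. In the cytoplasm 18 members were listed without arsenic (18.6% of all genes) and 13 with it (25.2% of all genes). CAPRIN windows lay on 36 members (44.6% of all genes) and G3BP1 windows on 10 (12.6% of all genes). Set against all genes, the members were listed more often in the untreated cytoplasmic, the CAPRIN and the G3BP1 lists, and close to as often in the arsenic cytoplasmic list, an order that changed at equal list length (values given with the list sizes). These shares are descriptions, since a gene had to have a window to enter and amounts of RNA were not measured here.

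The map of windows by gene and list shows the 7 members found in all 6 lists. These were DDX3X, DDX6, DDX17, DDX21, DDX39B, DHX9 and DHX15. Another 6 were in 5 lists: DDX5, DDX19A, DDX23, DDX24, DHX30 and DHX40. At the other end 12 members were in 2 lists and 1 member, DDX28, was in a single list. Lists per gene were not counted over all genes, so these numbers describe the members only. Some listings were thin: DDX17 entered the G3BP1 list by 1 window with 22 IP and 19 input reads. The G3BP1 list joins a set with up to 2 and a set with up to 3 replicates. Taken separately these sets listed 7 and 8 members.

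**Figure D1:**
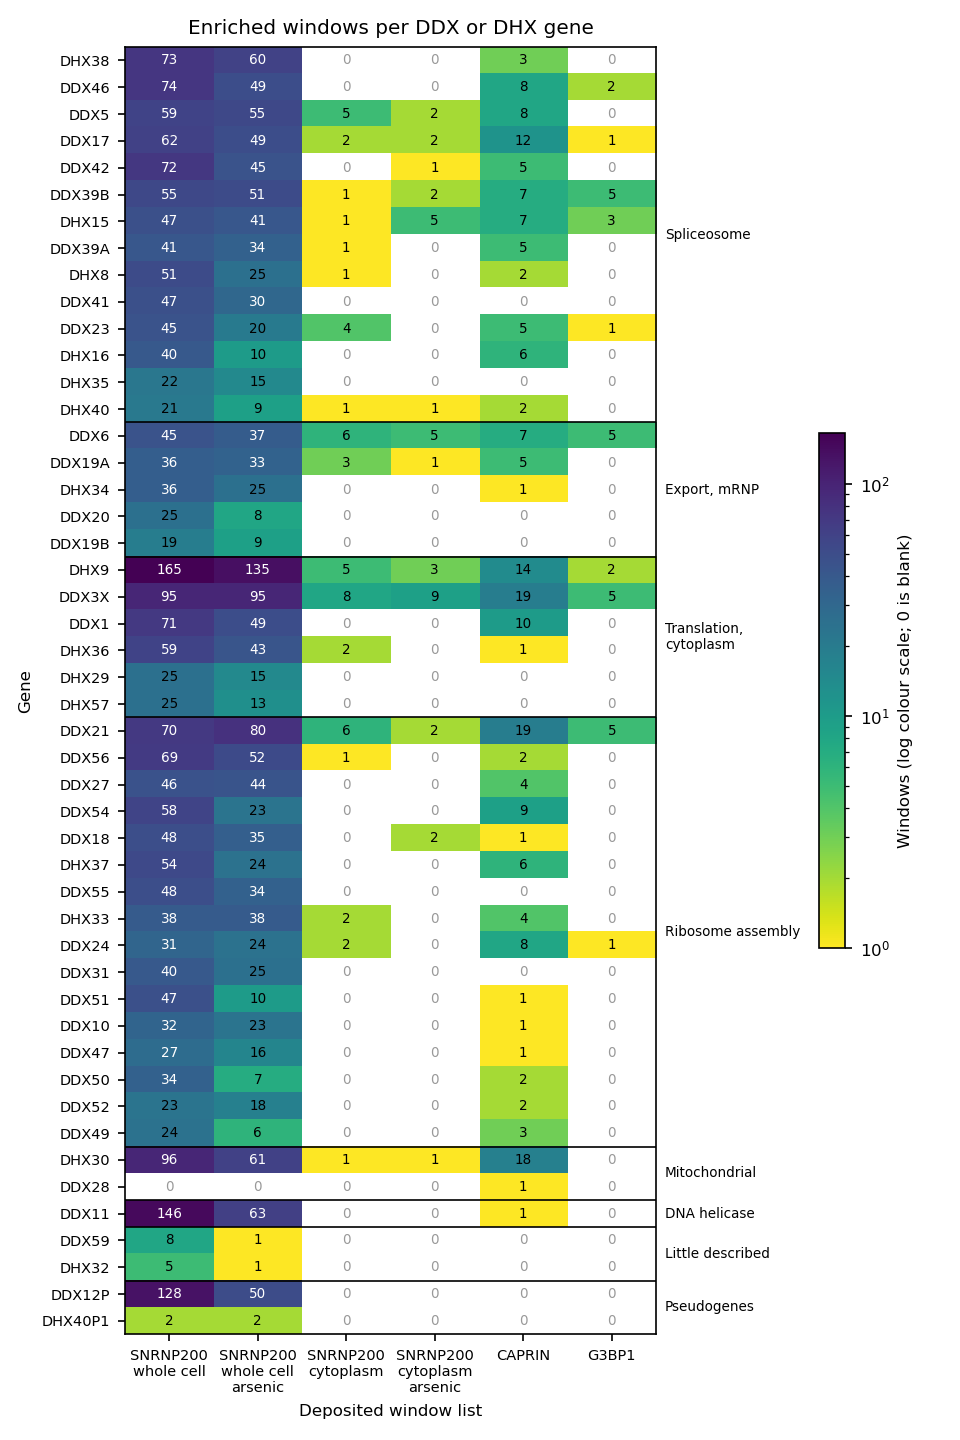
Number of enriched windows for each of the 48 DDX and DHX genes (rows, grouped by role and ordered by all windows) in each of the 6 deposited lists (columns); colour is on a log scale. The 2 whole-cell columns are filled for 47 genes, with up to 165 windows for DHX9, and the other 4 columns hold at most 19 windows per gene.

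The lists differ in size and in reads per window, which bears on every count. They held 182066 windows for SNRNP200 in untreated whole cells, 117690 with arsenic, 4182 and 6773 in the cytoplasm without and with arsenic, 15831 for CAPRIN and 3023 for G3BP1. Member windows numbered 2384, 1592, 52, 36, 210 and 30 in that order, between 0.532% and 1.35% of each list. The median member window rested on 18 to 38 IP reads, replicates summed. Its median input was 2 to 4 reads in 4 of the lists, 10 for G3BP1 and 20.5 in the arsenic cytoplasm, and the part this played in the results was not tested. With every list shortened to the 3023 windows of lowest q, the members listed became 19, 15, 13, 5, 16 and 10 in the same order, or 39.6%, 31.2%, 27.1%, 10.4%, 33.3% and 20.8% of the 48. All genes were then listed at 12.4%, 12.1%, 14.9%, 15.3%, 14.1% and 12.6%. At equal length the arsenic cytoplasm was thus the 1 list with a smaller share of members than of all genes, and the untreated whole-cell list had the widest gap in the other direction.

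By gene length the family was densely covered in whole cells. The median member had 1.62 windows per kb of gene in untreated cells, against 0.426 per kb for the median listed gene, and 0.841 against 0.265 with arsenic. DDX41, a spliceosome-associated helicase, was the densest at 8.73 windows per kb without arsenic, followed by DDX56 at 8.51 and DDX5 at 6.85. DHX40P1 was the thinnest at 0.0759. A gene with no window adds nothing to these medians, and expression was not accounted for.

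The parts of the transcript that held the windows changed with the protein and the fraction, as they did for all genes. For SNRNP200 in untreated whole cells 32.3% of the member windows lay in introns directly at a splice site (exact 95% binomial interval 30.5% to 34.3%, counting error only), and with arsenic 36.2% (33.8% to 38.6%). Over all windows of those lists the shares were 35.7% and 41.0%. With 1 window per member they were 21.3% and 25.5%, so the binomial intervals do not cover the choice of windows. In the cytoplasm 0 of 52 and 0 of 36 member windows were of that kind. There the 3′ UTR held 67.3% without arsenic (52.9% to 79.7%) and 52.8% with it (35.5% to 69.6%), against 67.6% and 45.5% of all windows. In whole cells the 3′ UTR held 1.89% and 2.26% of the member windows.

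CAPRIN and G3BP1 windows on the members were mostly in coding sequence. The coding share was 58.6% for CAPRIN (51.6% to 65.3%), against 43.5% over all CAPRIN windows, and 53.3% for G3BP1 (34.3% to 71.7%), against 49.0%. The CAPRIN interval lies above the share over all windows, but windows of 1 gene are not independent. A single CAPRIN window lay in an intron at a splice site, in DDX39A, with 13 IP and 0 input reads.

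**Figure D2:**
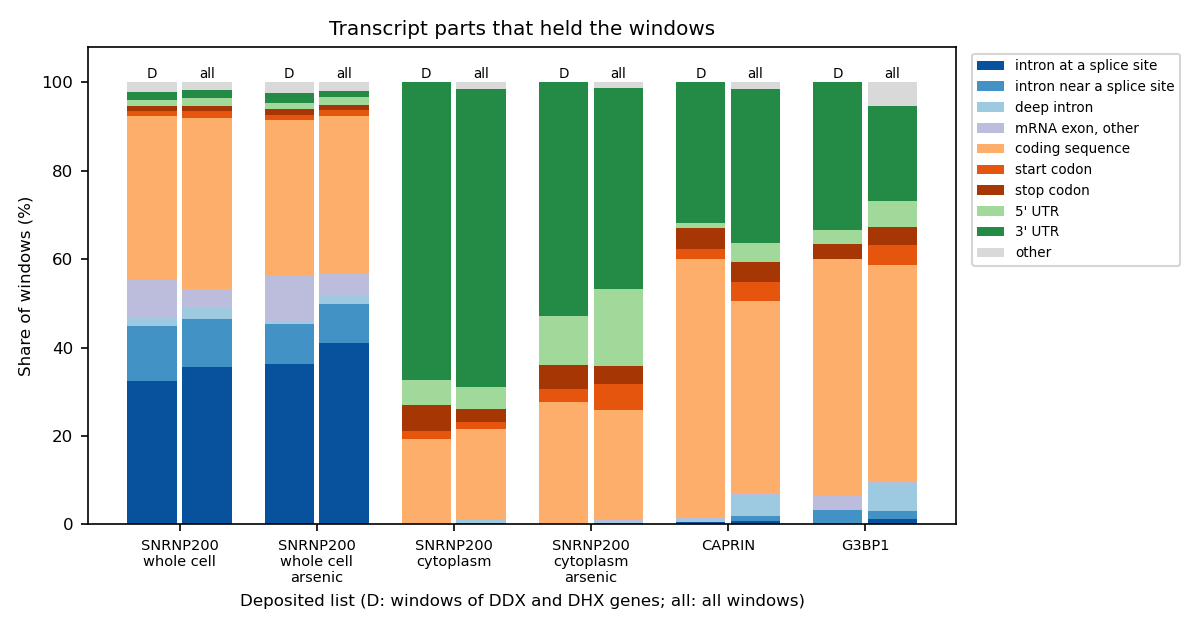
Share of windows (percent) by annotated part of the transcript, for the windows of DDX and DHX genes (left bar, D) and for all windows (right bar) of each of the 6 lists. Blue intron parts are 32.3% at splice sites alone in the untreated whole-cell members and absent from the cytoplasmic members, where the green 3′ UTR holds 67.3% and 52.8%.

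A class of exon windows stood out within the family. Windows annotated to an mRNA exon outside the usual coding and UTR parts were 8.72% of the member windows in untreated whole cells (7.62% to 9.93%), against 4.26% of all windows, and 10.4% with arsenic (8.97% to 12.03%), against 4.68%. All 208 and 166 of them were annotated to an intron of another transcript as well, and so were 7303 of 7755 and 5297 of 5513 over all genes. All 208 and 166 also carried a retained-intron transcript type, as did 7747 and 5506 over all genes. DDX3X alone held 41 of its 95 untreated windows in this class and DDX5 held 28 of 59. Without these 2 genes the shares were 6.23% and 6.80%.

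The spliceosome group had 14 members, and SNRNP200 windows lay on all 14 in both whole-cell lists. They held 709 windows without arsenic and 493 with it, and fewer were listed in the other lists: 8 and 6 in the cytoplasm, 12 for CAPRIN and 5 for G3BP1. DDX46, which acts when U2 snRNP joins the branch site, had most untreated windows (74), followed by DHX38, which drives the first catalytic step, with 73. DDX42, another U2-associated helicase, had 72. DDX46 and DHX38 had no cytoplasmic SNRNP200 window.

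DDX5, which with its paralogue DDX17 acts in splicing and transcription, held the member window with most IP reads in each whole-cell list. Its intron window at a 5′ splice site at chr17:64505976-64506075 collected 1178 IP and 22 input reads with arsenic and 428 and 10 without, and it was the deepest member window of the arsenic list. The replicates read 3.85 and 5.10 in untreated cells and 4.80 and 4.81 with arsenic, so the ranges overlapped. DDX39B, an export helicase that also loads U2 snRNP, held 55 and 51 whole-cell windows, 1 and 2 in the cytoplasm, 7 for CAPRIN and 5 for G3BP1. Part of its windows are shared in the annotation with the readthrough gene ATP6V1G2-DDX39B, and those reads cannot be assigned to 1 gene.

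DDX41 and DHX35, both proteins of the catalytic spliceosome, were in the whole-cell lists alone. One DDX41 window at chr5:177515875-177515928 was among the strongest of the untreated list, with 93 IP and 0 input reads and replicate values of 6.70 and 7.12. DHX15, which takes the spliceosome apart after splicing, was in all 6 lists. DHX40, which has been found with spliceosome parts, had 1 cytoplasmic window, the same one in both lists.

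Of the 6 genes listed for export, mRNP remodelling and decay, 5 had a window, and DDX25 had none. DDX6, a decay and repression factor of P-bodies, was in all lists. Its whole-cell windows, 45 and 37, spread over coding sequence and introns, with 1 in the 3′ UTR in each list. All 5 of its arsenic cytoplasmic windows, all 7 CAPRIN windows and all 5 G3BP1 windows lay in the 3′ UTR, as did 4 of its 6 untreated cytoplasmic windows. The nuclear-pore helicases DDX19A and DDX19B are near-identical copies, so counts split between them are uncertain: DDX19A had 36 untreated whole-cell windows and 3 cytoplasmic ones, DDX19B 19 and none.

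In the group of translation and cytoplasmic RNA handling all 6 genes had whole-cell windows. DHX9, a nuclear and cytoplasmic helicase that opens long duplexes, had most of any member, 165 without arsenic and 135 with it. Of its untreated windows 54 were at splice sites and 49 in coding sequence. Its strongest arsenic window at chr1:182881426-182881519, a short intron stretch near both splice sites, had 168 IP and 4 input reads and replicate values of 5.69 and 7.81.

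DDX3X, which opens structured 5′ leaders for translation, held 95 windows in each whole-cell list. Its transcript shows how the lists divide along 1 RNA. Over the 15.9 kb between the first and last listed bases, the untreated whole-cell windows had their median at 9.24 kb and their last at 13.4 kb. The 8 untreated cytoplasmic windows began at 13.1 kb, and 7 of them were at the stop codon or in the 3′ UTR. The 9 arsenic cytoplasmic windows began at 12.02 kb, and the 19 CAPRIN windows ran from 0.022 kb to 15.9 kb.

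DDX21, a nucleolar helicase of ribosomal RNA transcription and processing, divided in the same manner without arsenic. Its 70 untreated whole-cell windows ended at 26.5 kb of a 28.7 kb stretch. All 6 of its untreated cytoplasmic windows were in the 3′ UTR, from 26.7 kb on. With arsenic the division did not hold: 1 of its 2 cytoplasmic windows was in coding sequence at 12.9 kb and the other in the 3′ UTR. Of the 19 CAPRIN windows 10 and of the 5 G3BP1 windows 3 were at the stop codon or in the 3′ UTR.

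**Figure D3:**
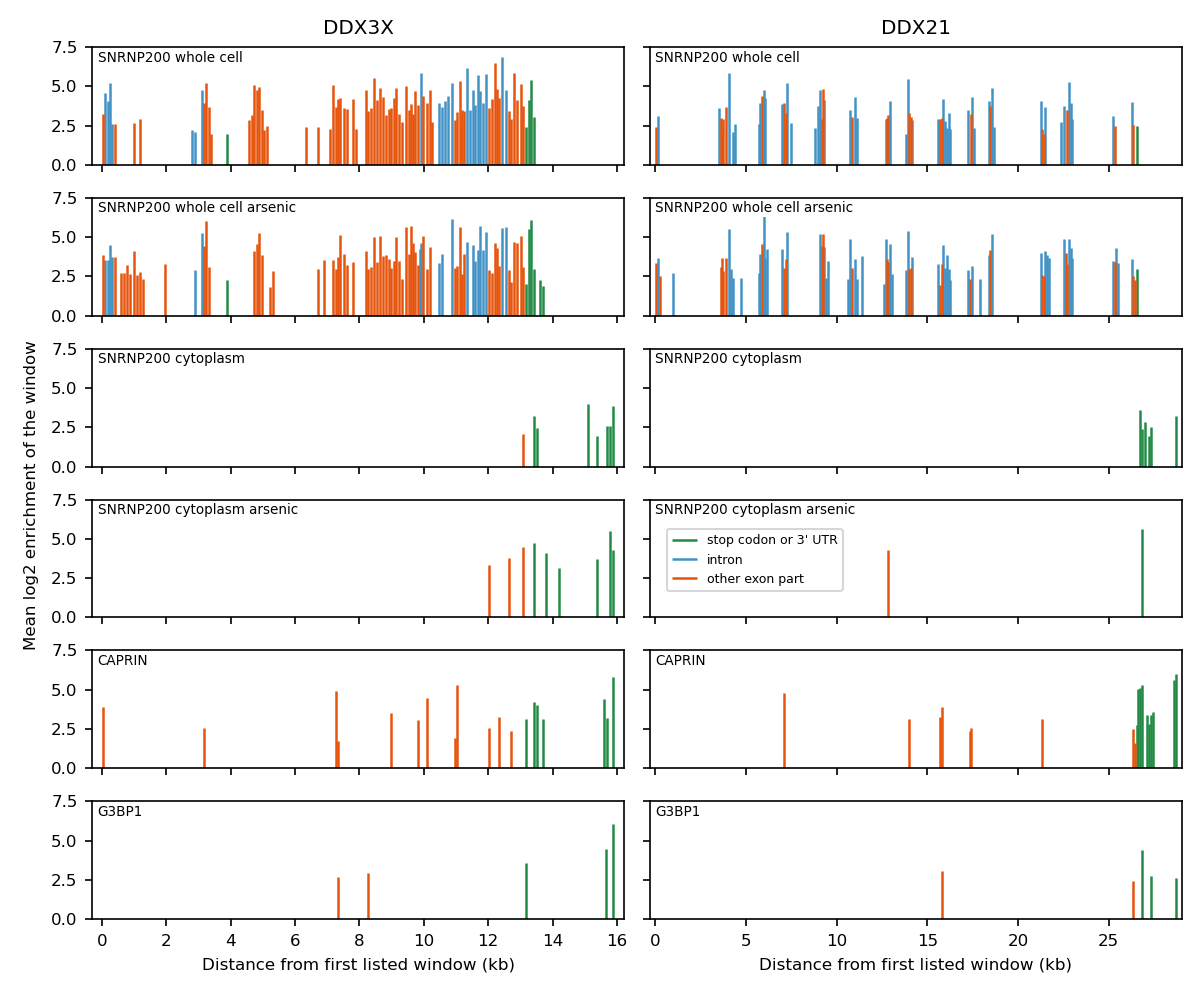
Mean log2 enrichment (y axis) of every listed window of DDX3X (left) and DDX21 (right) against distance from the first listed window in kb (x axis), 1 row per list. Whole-cell SNRNP200 windows cover the gene bodies and stop at 13.4 kb (DDX3X) and 26.5 kb (DDX21) in untreated cells, while untreated cytoplasmic windows begin at 13.1 kb and 26.7 kb.

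DDX1, part of the tRNA ligase complex, had 71 and 49 whole-cell windows, 10 for CAPRIN and none elsewhere. Its strongest CAPRIN window, in coding sequence at chr2:15603192-15603275, had 128 IP and 2 input reads and replicate values of 6.76 and 7.11. DHX36, which unwinds G-quadruplexes, had 2 untreated cytoplasmic windows and 1 for CAPRIN. DHX29 and DHX57 were in the whole-cell lists alone.

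All 16 genes of ribosome assembly had whole-cell windows, 689 without arsenic and 459 with it. For CAPRIN 14 were listed, with 63 windows, and for G3BP1 2, DDX21 and DDX24. DDX56 followed DDX21 with 69 and 52 whole-cell windows. DDX54, a nucleolar helicase, had 9 CAPRIN windows, the strongest in its 3′ UTR at 5.37 and 5.43 in the replicates. The strongest CAPRIN window of DDX27, a large-subunit assembly factor, was in coding sequence with 37 IP and 0 input reads and values of 5.75 and 6.49.

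DHX30 had 96 and 61 whole-cell windows, 1 in each cytoplasmic list and 18 for CAPRIN. The CAPRIN window at chr3:47846630-47846722, in coding sequence, had the highest mean enrichment of any member window in the 6 lists. It held 169 IP and 0 input reads, and its replicates read 7.12 and 7.83. DDX28, a mitoribosome assembly factor encoded by an intronless gene, was the single member with no SNRNP200 window. Its 1 CAPRIN window, in coding sequence, held 9 IP and 0 input reads.

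DDX11, a DNA helicase of sister-chromatid cohesion, and the pseudogene DDX12P are near-identical copies on chromosome 12, and reads cannot be divided between them with certainty. They had 146 and 128 untreated windows, more than any other member except DHX9, and 63 and 50 with arsenic. The highest mean enrichment among member windows of the untreated list, 7.04 with replicates at 6.44 and 7.64, was a DDX12P window at a 5′ splice site. The pseudogene DHX40P1, a copy of DHX40 sequence, had 2 windows in each whole-cell list. DDX59 and DHX32, for which no role is given here, had 8 and 5 windows without arsenic and 1 each with it. None of the 4 genes listed as innate immune sensors had a window.

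Among 22 RNA helicases with other names, 16 had a window, and they were listed in the same order of lists as the family. All 16 were in both whole-cell lists, 8 and 5 in the cytoplasm, 11 for CAPRIN and 4 for G3BP1. SNRNP200's own RNA had 140 untreated whole-cell windows, 4 in each cytoplasmic list, 27 for CAPRIN and 18 for G3BP1.

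The effect of arsenic on SNRNP200 in whole cells was first read from the lists. No member was listed without arsenic alone or with arsenic alone, while 11% of all genes were listed only without it and 2.32% only with it. Members had more windows to lose before leaving a list. The median listed member had 46 untreated windows, against 12 for the median listed gene. The 2 lists shared 1355 member windows, 56.8% of the untreated and 85.1% of the arsenic ones, against 50.1% and 77.4% of all windows. Over the 43 members with at least 20 untreated windows, the arsenic list held a median of 69.0% as many, against 65% for the 3173 such genes overall. DDX50, DDX51, DDX49 and DHX16 had the smallest such ratios, at 20.6%, 21.3%, 25% and 25%. DDX3X and DHX33 had equal numbers, 95 and 38, and DDX21 had 70 without arsenic and 80 with it. These are counts of listed windows and were not tested.

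**Figure D4:**
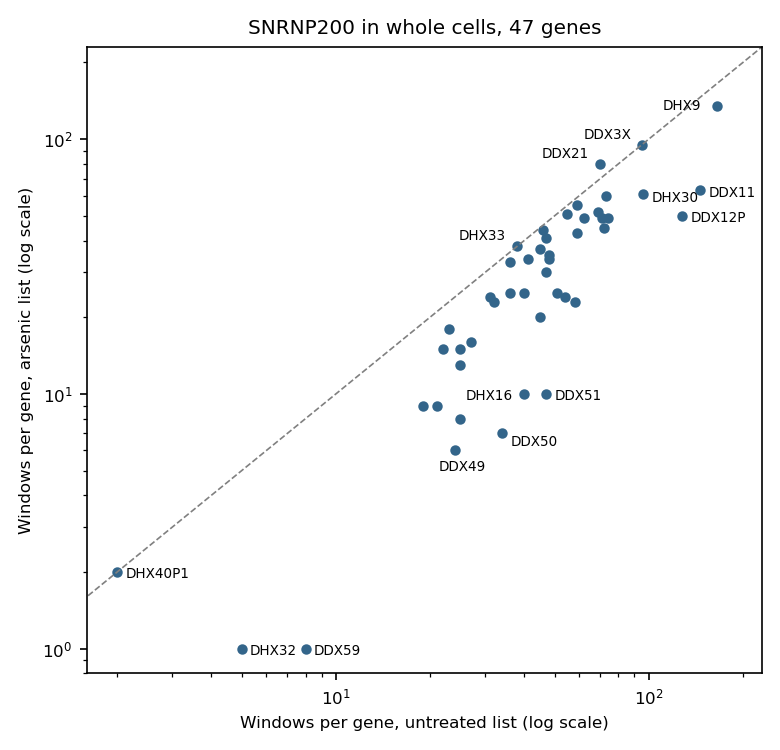
Windows per gene in the arsenic list (y axis) against the untreated list (x axis) of SNRNP200 in whole cells for 47 DDX and DHX genes, both on log scales; the dashed line marks equal numbers. Most genes lie under the line, DDX3X, DHX33 and the pseudogene DHX40P1 lie on it, and DDX21 lies above it with 80 against 70 windows.

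Enrichment itself was compared in 1 shared window per gene, the one with most IP reads. Limma (moderated, two-sided, Benjamini-Hochberg adjusted over all genes tested) called 0 of 46 members and 0% of 7531 genes between arsenic and untreated whole cells. At an unadjusted p under 0.05 there were 4 members and 288 genes. The median difference, arsenic minus untreated, was -0.05 for the members and 0.09 for all genes. Replicate ranges lay apart in 5 members that were higher with arsenic (16.9% of all genes) and in 11 that were lower (15.1% of all genes).

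DDX54 had the largest positive difference, in a short intron stretch at chr12:113174937-113175035. Its replicates read 3.52 and 3.55 without arsenic and 6.09 and 6.71 with it, a difference of 2.87 (SE 0.85, limma adjusted p = 0.990). The input there was 10 reads without arsenic and 0 with it. DDX31 and DHX35 followed at 1.497 and 1.24. At the other end DHX29, an initiation factor for structured leaders, read 3.59 and 5.70 without arsenic and 2.18 and 2.73 with it, a difference of -2.19 (SE 0.93, limma adjusted p = 0.990). DDX12P followed at -1.96 and DDX50 at -1.95. None of these passed. As the mean of all shared windows of the gene the differences were much smaller, 0.01 for DDX54, 0.18 for DHX35, -0.74 for DHX29, -0.17 for DDX12P and -0.26 for DDX50, and that of DDX31 turned to -0.03.

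In the cytoplasm the arsenic list held 13 members, 11 of them also listed without arsenic. DDX18, an assembly factor of the large subunit, and DDX42 were listed only with arsenic, as were 13.9% of all genes. The 2 DDX18 windows held 42 IP and 30 input reads together, and the 1 DDX42 window held 6 and 11. DDX23, DDX24, DDX39A, DDX56, DHX8, DHX33 and DHX36 were listed only without it, as were 7.25% of all genes. DDX23, an ATPase that brings the tri-snRNP into the spliceosome, had 4 of the windows in question and the others 1 or 2. The lists shared 12 member windows, 23.1% of the untreated and 33.3% of the arsenic ones, against 25.5% and 15.7% of all windows.

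All 7 members with a shared cytoplasmic window had higher mean enrichment with arsenic, but so did 95.8% of the 686 genes tested. Except in DHX40, summed input reads in these member windows were also higher with arsenic. The median difference was 1.98 for the members and 2.02 for all genes. Limma called 0 of the 7 members and 0% of the genes (2 members and 206 genes at an unadjusted p under 0.05). The ranges lay apart in 5 members, all higher with arsenic (71.3% of all genes were higher without overlap, 1.02% lower). How the authors set the baseline of each list was not settled here, and a shift common to all genes cannot be told apart from a difference in baseline. The arsenic cytoplasmic and arsenic whole-cell lists gave equal input reads in all 6 member windows that they were compared in. Whether the 2 cytoplasmic lists used the same kind of input was not tested.

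DHX40 had the largest difference, in its 3′ UTR at chr17:59608150-59608247. Its replicates read 1.46 and 3.30 without arsenic and 4.72 and 7.24 with it, a difference of 3.60 (SE 1.27, limma adjusted p = 0.134). The window held 37 IP and 10 input reads without arsenic and 22 and 5 with it. DDX21, in the 3′ UTR at chr10:68983009-68983106, read 2.05 and 2.76 without arsenic and 3.54 and 7.70 with it, a difference of 3.22 (SE 1.39, limma adjusted p = 0.152). The DDX21 window held 64 IP and 11 input reads without arsenic and 72 and 55 with it.

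DHX15 read 2.28 and 4.34 without arsenic and 4.96 and 6.97 with it in its 3′ UTR, a difference of 2.65 (SE 1.25, limma adjusted p = 0.169). That window held 25 IP and 3 input reads without arsenic and 33 and 10 with it. With the median of all genes removed the differences were 1.58 for DHX40, 1.19 for DDX21 and 0.63 for DHX15. DDX6 and DDX5 also lay apart, by 1.98 and 1.56. The DDX6 window held 34 IP and 10 input reads without arsenic and 25 and 53 with it. For DDX5 the reads were 67 and 14 without arsenic and 83 and 44 with it. DDX5 stood at 0.50 as the mean of its shared windows and turned to -0.46 with the median removed. DDX6 passed in 1 alternative, a variance trend (limma adjusted p = 0.0381, adjusted p 0.0381 to 0.998 over 4 alternatives), and stood at -0.04 once the median of all genes was removed. DHX9 and DDX3X had overlapping ranges and differences of 0.72 and 0.45, which turned to -1.30 and -1.57 with the median removed. DDX3X stood at 1.81 as the mean of its shared windows.

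**Figure D5:**
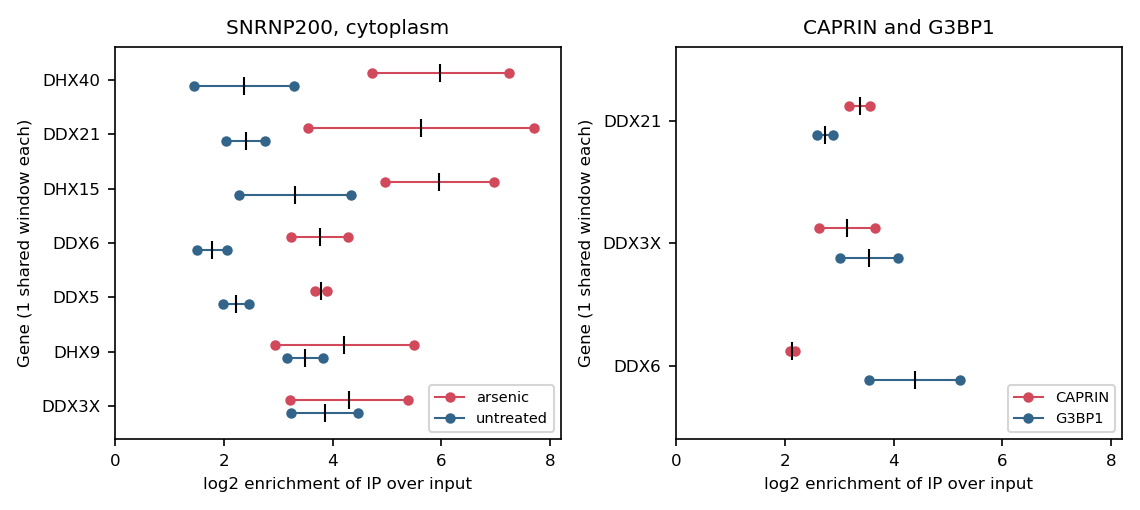
Log2 enrichment of IP over input (x axis) in 1 shared window per gene; dots joined by a line are the lower and higher replicate and the tick is their mean. On the left, SNRNP200 in the cytoplasm with arsenic (red) and without (blue): DHX40, DDX21, DHX15, DDX6 and DDX5 do not overlap. On the right, CAPRIN (red) and G3BP1 (blue): DDX6 is lower for CAPRIN and DDX21 higher.

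The cytoplasm was then set against the whole cell. Every member with a cytoplasmic window also had a whole-cell one, in both conditions, and all of them had a CAPRIN window as well. Of the 1818 and 2472 genes listed in the cytoplasm (without and with arsenic), 107 and 228 were not in the whole-cell list. Those not in the CAPRIN list numbered 486 and 610. Over all 9792 genes these are 1.09% and 2.33%, and 4.96% and 6.23%. Of the 52 untreated cytoplasmic member windows 15 (28.8%) were in the whole-cell list too, and of the 36 arsenic ones 12 (33.3%). Over all windows these shares were 15.6% and 13.02%. DDX11, DDX12P, DDX46, DHX38 and DDX42 had most whole-cell windows among the 29 members with none in the untreated cytoplasm.

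Without arsenic limma called 0 of 9 members and 0% of 405 genes between cytoplasm and whole cell (2 members and 66 genes at an unadjusted p under 0.05). In the cytoplasm 2 members were higher with ranges apart (26.7% of all genes) and 2 lower (23.5% of all genes). DDX19A, in its 3′ UTR, read 3.94 and 4.38 in the cytoplasm and 1.93 and 2.60 in whole cells, a difference of 1.89 (SE 0.56, limma adjusted p = 0.258), or 1.57 as the mean of its shared windows. The DDX19A window held 18 IP and 0 input reads in the cytoplasm and 47 and 13 in whole cells. DDX3X, in a coding window at chrX:41347312-41347368, went the other way with 1.98 and 2.19 against 3.20 and 4.26, a difference of -1.64 (SE 0.59, limma adjusted p = 0.262), or -0.76 as the mean of its shared windows (limma adjusted p = 0.5996). DDX6 was higher in the cytoplasm by 1.00, DDX24 by 0.61 (0.39 as the mean of its shared windows), and DHX9 stood at -0.47, which turned to 0.66 as the mean of its shared windows. The median was 0.40 for members and 0.12 for all genes.

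With arsenic limma called 0 of 6 members and 0% of 545 genes (0 members and 97 genes at an unadjusted p under 0.05). In 4 members the cytoplasm was higher with ranges apart (58.9% of all genes), and in none lower (2.2% of all genes). The largest difference was in DHX30, in coding sequence, with 3.57 and 5.32 in the cytoplasm and 2.20 and 3.19 in whole cells, a difference of 1.75 (SE 0.94, limma adjusted p = 0.272). DDX39B and DDX3X both differed by 1.41. With the median removed DHX30 stood at 0.45 and both of these at 0.11, and DDX21 turned from 0.87 to -0.44. The median was 1.38 for members and 1.31 for all genes. In all 6 member windows the summed input reads were the same in the 2 lists. They were 8 for DHX30, 34 for DDX39B and 18 for DDX3X in each. IP reads were lower in the cytoplasm in all 6, at 32 against 51 for DHX30. Whether the 2 arsenic lists rest on the same input reads was not tested.

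Whether arsenic acted differently in the 2 fractions could be tested in 2 members. Limma called 0 of 2 members and 0% of 70 genes (1 member and 22 genes at an unadjusted p under 0.05). For the DDX3X coding window the arsenic effect was larger in the cytoplasm by 3.05 (SE 1.49, limma adjusted p = 0.147), and for DHX9 by 0.34 (SE 1.49, limma adjusted p = 0.844). Over all 70 genes the median was 2.52, and with it removed DDX3X stood at 0.53 and DHX9 turned to -2.19.

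CAPRIN and G3BP1 were compared next. All 10 members with a G3BP1 window also had a CAPRIN window. Of the 1232 genes with a G3BP1 window, 280 had no CAPRIN window (2.86% of all 9792 genes). CAPRIN windows without G3BP1 ones lay on 26 members (34.8% of all genes), led by DHX30 with 18 windows, DDX1 with 10, DDX54 with 9 and DDX5 with 8. The lists shared 13 member windows, 6.19% of the CAPRIN and 43.3% of the G3BP1 ones, against 10.7% and 55.8% of all windows. Part of the G3BP1 windows are cut at slightly different bases, so sharing by identical ends is a lower count.

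In the 3 members with a testable shared window, 1 passed. DDX6, in its 3′ UTR at chr11:118748846-118748944, read 2.09 and 2.18 for CAPRIN and 3.55 and 5.23 for G3BP1, a difference of -2.26 (SE 0.66, limma adjusted p = 0.0375, adjusted p 0.00463 to 0.0960 over 5 alternatives). It did not pass as the mean of all its shared windows (difference -1.38, limma adjusted p = 0.0960) or with the median of all genes removed (-1.78, limma adjusted p = 0.0876). Limma called 29.8% of the 379 genes tested, 72 lower and 41 higher for CAPRIN, or 39 lower and 57 higher with the median removed. DDX21 read 3.19 and 3.57 for CAPRIN and 2.59 and 2.89 for G3BP1 (difference 0.64, SE 0.52, limma adjusted p = 0.395), and DDX3X differed by -0.41 with overlapping ranges. With the median removed DDX21 stood at 1.12 and DDX3X turned to 0.07. With ranges apart 1 member was higher for CAPRIN (25.1% of all genes) and 1 lower (43.5% of all genes).

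The cytoplasmic SNRNP200, CAPRIN and G3BP1 lists met in a few windows. Counting windows of the other lists that a G3BP1 window covered by at least 50 bases, 49 member windows recurred in 2 or more of these 4 lists, in 15 members, and 27 of them were in the 3′ UTR. In 3 or more, 10 recurred, in 6 members: DDX3X, DDX5, DDX21, DHX9, DHX15 and DHX40. A pair of 3′ UTR windows recurred in all 4 and in neither whole-cell list. Recurrence was not counted over all genes, so these numbers describe the members only.

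The first of the pair was in DDX3X at chrX:41350089-41350187. Its replicates read 3.24 and 4.47 in the untreated cytoplasm, 3.22 and 5.39 with arsenic, 5.64 and 5.99 for CAPRIN, and 5.26 and 6.81 for G3BP1 at a window 11 bases to the left. IP and input reads were 126 and 8, 38 and 39, 50 and 2, and 34 and 1 in that order. The second, in DDX21 at chr10:68983009-68983106, read 2.05 and 2.76, 3.54 and 7.70, 5.26 and 5.38, and 4.08 and 4.76. Levels from different lists stand side by side here as deposited and were not compared.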

How the data were processed

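Lists of enriched windows of at most 100 bases were deposited for 6 eCLIP experiments (24 libraries, 2 labelled replicates a group). Reads were trimmed with fastp 0.11.5, aligned with STAR 2.7.6 and placed on hg38, per the submitters' processing notes. The sources used here do not name the window caller. Without a header in the lists, columns were identified from their values. For each window the authors deposited input and IP read counts with replicates summed, the lowest, mean and highest log2 enrichment over replicates, p-values and q-values (q under 0.2), the GC content as a fraction, and a score that was the number of replicates enriched. The deposited G3BP1 list holds a set with up to 2 and a set with up to 3 replicates, and the first was used for tests.

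Genes were taken from the name column, and a window named for several genes counted for each. Members and gene lists were chosen with earlier results of these data known. Named genes were those with most windows or highest enrichment in a list (at least 20 IP reads), in at least 5 lists, in 1 list of a comparison, with the 3 largest differences in each direction, any call, up to 4 per role, and pseudogenes. The DDX5 whole-cell window, the miR-1226 window and single windows given for other members were added after their values were seen.

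Limma 3.58.1 (R 4.3.3) was fitted unpaired to the lowest and highest replicate values of 1 shared window per gene, Benjamini-Hochberg adjusted over all genes, threshold 0.05, and tested on simulated data. With 2 labelled replicates the p-values measure only the spread between these samples. Other values were computed in Python 3.11.15. Library totals were not used, so depth is unknown, and binomial intervals (exact, 95%) cover counting error only. Alternatives were a q limit, a minimum of 3 windows, equal list lengths, 1 window per member, a read minimum, a variance trend, the mean of shared windows and removal of the median. The G3BP1 sets taken separately were added after seeing the data. The treatment protocol mentions arsenic for every sample, and the treatment characteristic was used to group them. The protocols give the same antibody number for all 3 proteins.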

Additional observations from a re-analysis of the deposited data

How the results depend on the processing

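No paired analysis was possible because the deposited columns give the lowest and highest replicate values with no replicate numbers, and leaving out a replicate was not run for the same reason. Of 82 alternative values for 24 results, 63 stayed close to the reported value and 19 moved; the cause was not tested. With lists of equal length the members listed became 19 and 15 (whole cell, untreated and arsenic), 5 (cytoplasm, arsenic) and 16 (CAPRIN), against 12.4%, 12.1%, 15.3% and 14.1% of all genes. The 5 members are 10.4% of 48, under the share of all genes, and the other 3 counts lie above it. With q under 0.05 they became 5 in each cytoplasmic list. With at least 3 windows they became 7 and 4 in the cytoplasm (untreated and arsenic), 23 for CAPRIN and 5 for G3BP1. Shares of all genes were not computed under the q limit or the minimum of 3 windows, so these counts have no background. The share in introns at a splice site became 21.3% and 25.5% in whole cells (untreated and arsenic) and 0% for CAPRIN with 1 window per member, and 35.8%, 43.3% and 0% with q under 0.05. Members called by limma became 1 for arsenic in the cytoplasm with a variance trend, and 0 for CAPRIN against G3BP1 as the mean of shared windows and 0 with the median removed. Over all genes, limma called 0 between arsenic and untreated cytoplasm, but 115 with a variance trend, 30 with the mean of shared windows, 21 of 39 with q under 0.05 and 40 of 290 with the read minimum. Between cytoplasm and whole cell the read minimum gave 18 of 99 without arsenic and 1 of 326 with it, and q under 0.05 gave 1 of 25 with arsenic. With the median removed CAPRIN against G3BP1 split into 57 higher and 39 lower. No value for members could be had with the q limit for arsenic in the cytoplasm, untreated cytoplasm against whole cell and the difference of the arsenic effect, or with the read minimum for the last, because no member or too few genes remained. Median windows rested on 18 to 38 IP reads, which limits single windows.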
